A study of Mus musculus with 4 samples.

Results

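The S phase and DNA replication genes studied here were 41 genes named in a fixed list, and all 41 were found by symbol among the 21937 features of 4 single-cell RNA count matrices from the embryonic mouse telencephalic midline. By role, 10 members belong to loading and activation of the replicative helicase, among them geminin (Gmnn), which blocks a further round of loading. Another 10 belong to the polymerases, the sliding clamp and the fork, and 3 supply nucleotides. A further 7 act in DNA repair, 8 act on chromatin and histones, and 3 belong to cell cycle control. All members were protein-coding, and they lay on 17 chromosomes, with the largest numbers on chromosome 4 (6 members) and chromosome 5 (5 members).

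The 4 libraries came from control embryos (Lmx1aCre::Ai9) and embryos with a β-catenin gain-of-function allele (Lmx1aCre::Ai9::b-cat gof, called gof below) at embryonic days E11.5 and E14.5. Both genotypes carried the Cre recombinase driven by Lmx1a, a gene active in the hem and choroid plexus, and the Ai9 reporter, which makes the red fluorescent protein tdTomato after Cre has acted. Where 4 values are listed for the libraries, the E11.5 pair comes first and control precedes gof within each pair. Tissue around the cortical hem was taken from both hemispheres, and each library was 1 pool, of 5 male embryos at E11.5 and of 3 male embryos at E14.5. With 1 library per age and genotype, genotype, pool and library cannot be told apart and no test across samples exists, so the intervals given below are exact 95% intervals for counting error only.

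Before S phase, the Mcm2 to Mcm7 helicase is loaded onto origins with the help of Cdc6, and geminin (Gmnn) blocks a further round of loading. Polymerases, the clamp Pcna and its loader then copy the DNA while ribonucleotide reductase and thymidylate synthase supply deoxynucleotides. Many of these genes are known targets of E2F transcription factors and are transcribed around the transition into S phase. In the embryonic forebrain they mark cycling progenitors of the ventricular zone, and they are switched off as neurons, Cajal-Retzius cells among them, leave the cell cycle. The hem is a midline signalling centre that secretes Wnt and Bmp proteins, gives rise to Cajal-Retzius cells and borders the choroid plexus and the hippocampal primordium.

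Promoter sequences were examined because the members are known as E2F targets. RefSeq promoter entries for GRCm38.p6 (250 bases before to 50 bases after a gene's start) matched 31 of the 41 members, with 35 promoters in all. No entry was matched for Mcm4, Gins2, Rfc2, Gmnn, Ccne2, Atad2, Exo1, Tipin, Dscc1 and Usp1. An E2F-type motif, TTTGGCGC, TTTCCCGC or TTTCGCGC on either strand, was found in 13 of the 31 members (41.9%), against 573 of all 27025 genes in the same table (2.12%). The 13 were Casp8ap2, Cdc6, Cdca7, Clspn, Dtl, Hells, Mcm3, Mcm5, Mcm6, Mcm7, Pola1, Pold3 and Uhrf1. CCAAT on either strand occurred in 22 members (71.0%) and in 41.1% of all genes, and 9 members (29.0%) held both motifs against 0.910% of all genes. The CHR-type motif TTTGAA, typical of genes of G2 and mitosis, occurred in 6 members (19.4%) and in 20.2% of all genes. TTTGGCGC and TTTCGCGC can overlap on opposite strands, as they do in Mcm6. CCAAT is contained in none of the other motifs, though it can share end letters with them. A match is a description of these letters and not evidence of a bound site.

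The 150 bases before the start are shown for 4 members with a match there whose levels are described below: 2 helicase subunits, the loading factor Cdc6 and the polymerase subunit Pola1. Each reads 5′ to 3′ on the gene's own strand, with E2F-type matches in capitals. The stretches are chr11:98908001-98908150 (plus strand) for Cdc6, chr8:75109359-75109508 (plus) for Mcm5, chr1:128359706-128359855 (minus) for Mcm6 and chrX:93632156-93632305 (minus) for Pola1, and none overlaps an annotated exon. The 2 annotations place the start of Cdc6 differently: its stretch lies before the RefSeq start but inside the gene as GENCODE M21 gives it.
Cdc6: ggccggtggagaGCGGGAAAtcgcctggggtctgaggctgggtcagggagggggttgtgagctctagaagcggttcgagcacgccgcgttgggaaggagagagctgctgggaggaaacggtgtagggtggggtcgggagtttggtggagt
Mcm5: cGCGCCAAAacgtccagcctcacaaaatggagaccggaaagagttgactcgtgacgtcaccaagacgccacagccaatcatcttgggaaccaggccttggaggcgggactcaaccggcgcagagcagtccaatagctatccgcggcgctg
Mcm6: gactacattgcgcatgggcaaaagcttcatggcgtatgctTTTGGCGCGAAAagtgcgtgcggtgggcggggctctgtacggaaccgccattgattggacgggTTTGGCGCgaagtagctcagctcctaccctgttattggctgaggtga
Pola1: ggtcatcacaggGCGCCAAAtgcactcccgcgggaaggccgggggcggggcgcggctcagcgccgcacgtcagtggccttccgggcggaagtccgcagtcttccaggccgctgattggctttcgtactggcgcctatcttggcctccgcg
Mcm6 carried 3 matches, 2 of them overlapping, and each of the other 3 stretches carried 1.

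After filtering, 25329 cells were kept, between 5258 and 6991 per library, with median depths of 8172, 5643, 12850 and 14013 UMIs (unique molecular identifiers, 1 per captured RNA molecule). Pairs of libraries shared 12 to 18 cell barcodes. Ctnnb1, which encodes β-catenin, read 252.8, 214.0, 309.3 and 288.6 CPM, a gene's UMIs per 1000000 UMIs of the same cells; the labels do not describe the gof allele, and tags summed over the gene do not test it. The E11.5 gof library held more non-neural cells than its control (23.7% against 15.5%) and more haemoglobin RNA (35728 against 23934 CPM). At E14.5 the Cajal-Retzius gate described below held 6.48% of control and 0.837% of gof cells, so the libraries differed in their make-up as well as in genotype.

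Cells were gated on marker genes, none of which is a member or a cell cycle gene. Progenitors drew at most 30% of their neuron and progenitor marker UMIs from neuron markers, and the neuron gate at least 70%. Pallial progenitors had at least 3 of 7 pallial markers, hem progenitors had Lmx1a or Wnt3a and at least 5 of 13 hem markers, choroid plexus cells had at least 4 of 9 markers without Ttr, and Cajal-Retzius cells had Trp73 and at least 3 of 9 markers. These gates are rebuilt classes, not the annotation of the study's authors.

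The members were progenitor genes in every library. In the pallial gate they summed to 4234, 3810, 4345 and 4972 CPM. The neuron gate read 1012, 993, 699 and 1015 CPM and the Cajal-Retzius gate 912, 975, 968 and 1114 CPM, the last from 44 cells. Hem cells lay between these, at 3729, 3341, 3038 and 3463 CPM, and choroid plexus cells at 3229, 2728, 1897 and 2100 CPM. Pallial cells thus had the highest sum and the neuron and Cajal-Retzius gates the lowest sums in each of the 4 libraries. Counting intervals did not overlap between the pallial gate and any other named gate.

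**Figure D1:**
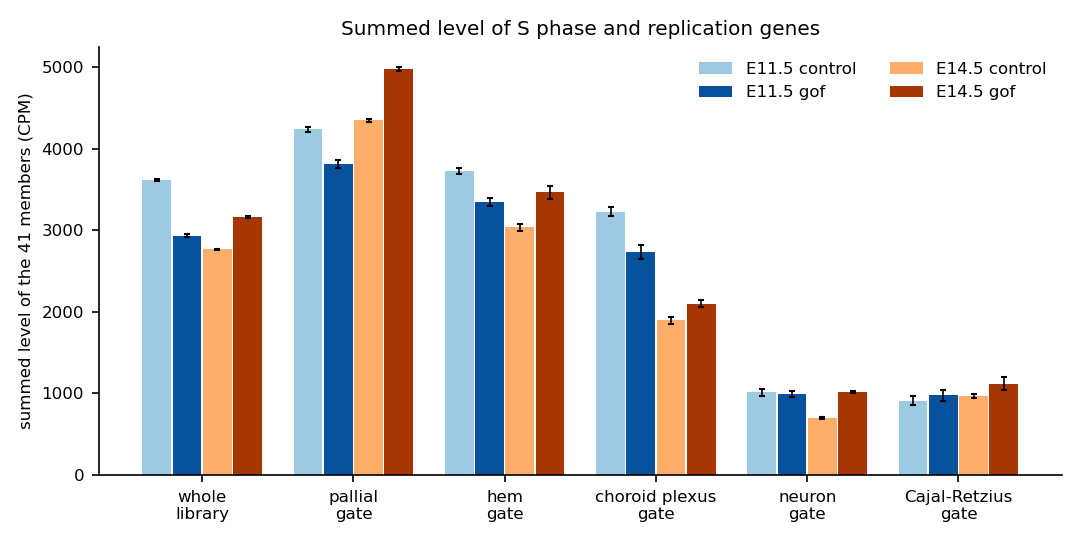
Bars give the summed level of the 41 members in CPM (y axis, from 0) for the whole library and 5 marker gates (x axis) in each of the 4 libraries, with exact 95% Poisson intervals as error bars. In the pallial and hem gates the gof bar is below control at E11.5 and above it at E14.5, and the neuron and Cajal-Retzius gates stay at or below 1114 CPM.

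Throughout, a member counts as measured at 10 CPM or more in either population, and as higher or lower when its log2 ratio, computed with 1 CPM added, passes 1.5-fold and the 2 counting intervals are separate. By this rule 40 of 41 members were higher in pallial than in neuron-gated cells in E11.5 control and 40 in E11.5 gof, where 19.4% and 18.7% of all measured genes were higher. At E14.5 all 41 were higher in both libraries, against a background of 25.5% in control and 21.9% in gof. Some members, among them Gmnn and Clspn (5.32 and 2.81 CPM in E14.5 control neurons), reached 10 CPM in pallial cells only. Such a filter favours the call. The backgrounds hold genes measured in either population and are not matched in this respect, so the counts are a description. The members that missed the limit were the cyclin Ccne2 in E11.5 control, which activates Cdk2 at S phase entry (13.5 against 8.14 CPM, with overlapping intervals), and Brip1, a repair helicase, in E11.5 gof (11.8 against 5.96 CPM, likewise overlapping). Against Cajal-Retzius cells, 39 members were higher in pallial cells in the E11.5 and 41 in the E14.5 control library, with backgrounds of 17.2% and 19.9%. The same limit of the filter holds for this contrast.

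Individual members followed this order with different floors. Pcna, the sliding clamp (ENSMUSG00000027342, chr2:132249162-132253314), read 264.8, 243.8, 292.9 and 293.8 CPM in pallial cells and 43.2, 57.2, 39.8 and 51.8 CPM in neuron-gated cells. Cdc6, the helicase loading factor (ENSMUSG00000017499, chr11:98907801-98923940), read 20.4, 15.2, 26.3 and 23.2 CPM in pallial cells and 0.509, 1.99, 1.254 and 1.13 CPM in neurons. Nasp, a histone H1 and H3 chaperone, kept a higher neuronal level, at 194.9, 160.4, 156.7 and 245.3 CPM, against 552.0, 464.1, 555.9 and 703.3 CPM in pallial cells. In cells thinned to 3000 UMIs, Pcna was detected in 48.7% to 52.2% of pallial cells and in 10.9% to 14.54% of neuron-gated cells, and Cdc6 in 5.51% to 6.80% of pallial cells and at most 0.661% of neuron-gated cells, with 0 of 320 cells in E11.5 control (interval up to 1.15%). The neuron values serve as the background of free RNA and misassigned cells, at median depths of 3671 to 13189 UMIs per library against 7394 to 15613 UMIs in pallial cells.

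At E11.5 the summed level of the members was lower in gof than in control, through many small differences. Over the whole library they read 3617 CPM in control (interval 3603 to 3631) and 2935 CPM in gof (2920 to 2950), a log2 ratio of −0.30. Of 41 measured members, 38 had a ratio below 0 and 3 above it, where 65.2% of the 8402 measured genes had a ratio below 0. Passing the 1.5-fold limit was rare: 2 members were lower and 0 higher, against a background of 4.12% lower and 4.27% higher, so the share of members lower was near that of genes in general. The median member ratio was −0.29 and that of all measured genes −0.12.

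The members past the limit were Casp8ap2 and Clspn, a share near that of genes in general. Casp8ap2 (ENSMUSG00000028282, chr4:32615451-32653265), a nuclear body protein needed for histone gene expression, read 73.1 CPM in control and 42.0 CPM in gof, a log2 ratio of −0.78. Claspin (Clspn, ENSMUSG00000042489, chr4:126556935-126593903), which links the fork to the checkpoint kinase Chek1, read 61.0 and 38.9 CPM, a ratio of −0.63. Chaf1b, a subunit of the histone chaperone that follows the fork, came next at 29.9 and 19.8 CPM, just inside the limit at −0.57. At the other end stood Ccne2 (ENSMUSG00000028212, chr4:11191351-11204779) with 17.3 CPM in control and 22.5 in gof (0.36), then Mcm7 with 133.8 and 147.2 CPM (0.14) and the methylation maintenance factor Uhrf1 with 51.1 and 52.2 CPM (0.03).

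By role, the median log2 ratio in the whole E11.5 libraries was −0.35 for polymerases, clamp and fork, −0.35 for chromatin and histones, −0.27 for nucleotide supply, −0.23 for the helicase, −0.20 for repair and −0.07 for cell cycle control. Among the best known members, Mcm2 read 50.8 CPM in control and 44.2 in gof, and Mcm6 97.9 and 83.4. Rrm2, the regulated subunit of ribonucleotide reductase (ENSMUSG00000020649, chr12:24708241-24714146), read 284.0 and 234.7 CPM, and Tyms, thymidylate synthase, 138.0 and 105.3. All 4 ratios were below 0 and within 1.5-fold. The same was true of Pcna (220.8 and 196.1 CPM), Cdc6 (16.5 and 13.2) and E2f8, an E2F family repressor (12.9 and 10.3).

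The size of the E11.5 difference depended on the cells counted. Without non-neural cells the log2 ratio of sums was −0.23, among progenitors alone −0.18, in the pallial gate −0.15 (3810 against 4234 CPM) and in the hem gate −0.16 (3341 against 3729 CPM). Relative to the median of all genes, the ratio was −0.18 in whole libraries, −0.055 in the pallial gate and −0.087 in the hem gate, and with the gate set on thinned cells the hem ratio was −0.067. Mesenchymal markers summed to 359 CPM in control and 861 CPM in gof over the whole library, and their part in the difference was not tested beyond the values without non-neural cells. In pallial cells Ccne2 was higher in gof (13.5 and 21.5 CPM, 0.63), and Casp8ap2 (85.7 and 47.8 CPM, −0.83) and Dscc1, part of an alternative clamp loader (22.5 and 14.4 CPM, −0.61), were lower, against backgrounds of 4.35% higher and 7.07% lower. Mcm7 (0.34) and Cdca7, a chromatin remodelling cofactor (0.17), were the next highest there, and Atad2 (−0.50) the next lowest. In hem cells only Casp8ap2 passed the limit among the members (77.5 and 48.3 CPM, −0.67), with 4.46% of all genes lower, and Clspn (−0.57) and the repair helicase Blm (−0.44) came next. Casp8ap2 therefore passed the limit in the whole library and in both progenitor gates.

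At E14.5 the sign was the opposite. The whole-library sum was 2765 CPM in control (2754 to 2775) and 3159 CPM in gof (3147 to 3171), a log2 ratio of 0.19, and 32 of 41 members had a ratio above 0, where 38.2% of all measured genes did. Geminin (Gmnn, ENSMUSG00000006715, chr13:24751845-24761923) was the 1 member past the limit, with 71.9 CPM in control and 109.3 in gof (0.60), against a background of 3.13% higher and 8.1% lower. The median member ratio was 0.19 where that of all 9753 measured genes was −0.09. Next to Gmnn stood Mcm3 with 56.1 and 79.1 CPM (0.49) and Uhrf1 with 34.0 and 45.3 CPM (0.40). The lowest were Pola1, the catalytic subunit of polymerase α (ENSMUSG00000006678, chrX:93304767-93632155), with 83.2 and 64.1 CPM (−0.37), Blm with 44.95 and 35.8 CPM (−0.32) and Rrm1, the large subunit of ribonucleotide reductase, with 84.1 and 68.2 CPM (−0.30).

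By role at E14.5, helicase members (Gmnn included) and chromatin members had median ratios of 0.33 and 0.33. The medians were 0.11 for polymerases, clamp and fork, 0.08 for repair, 0.02 for nucleotide supply and −0.06 for cell cycle control. Within the helicase, Mcm2 (35.1 and 46.0 CPM), Mcm3, Mcm5 (39.8 and 51.2) and Mcm7 (130.2 and 164.7) had ratios above 0 within the limit, while Mcm6 (93.9 and 95.4 CPM) differed little and Mcm4 (61.3 and 57.9) had a ratio below 0. Pcna (179.2 and 182.4 CPM), Tyms (89.5 and 90.9) and E2f8 (18.6 and 17.2) were also close between genotypes. Rrm2 read 112.0 and 132.5 CPM, so the ratios of the 2 subunits of ribonucleotide reductase had opposite signs, neither past the limit. Cdc6 read 15.1 and 13.2 CPM and Ccne2 14.53 and 16.7 CPM.

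The pallial gate alone gave the same size at E14.5. Its sum was 4345 CPM in control (4325 to 4364, 2643 cells) and 4972 CPM in gof (4949 to 4995, 2045 cells), a ratio of 0.19, and Gmnn was the only member past the limit (125.1 and 191.2 CPM, 0.61) where 2.62% of all genes were higher and 8.94% lower. Mcm3 (96.7 and 140.9 CPM, 0.54) and Slbp, the histone mRNA stem-loop binding protein (152.5 and 220.8 CPM, 0.53), followed, and Blm (−0.38), Pola1 (−0.33) and Rrm1 (−0.33) were lowest. In hem cells the sums were 3038 CPM in control (417 cells) and 3463 CPM in gof (118 cells), again 0.19, with Cdca7 as the 1 member past the limit (54.5 and 84.3 CPM, 0.62; background 5.7% higher).

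In choroid plexus cells the gof sum was lower at E11.5 (3229 and 2728 CPM, −0.24; 97 gof cells), where 4 members and 4.32% of all genes were lower, and higher at E14.5 (1897 and 2100 CPM, 0.15). At E14.5, 7 of 39 measured members were higher and 4 lower, against 14.9% and 20.9% of all genes, and the gated cells differed in state, with Ttr, the main secreted product of this epithelium, reading 74864 CPM in control against 12187 CPM in gof. Rpa2, of the single-strand binding complex (25.6 and 44.8 CPM, 0.78), and Tyms (47.5 and 79.5 CPM, 0.73) were highest, and Pola1 (77.2 and 35.7 CPM, −1.09) and Wdr76 (−1.08) lowest. Cajal-Retzius cells gave ratios of sums of 0.10 (E11.5) and 0.20 (E14.5), the second from 44 gof cells.

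The E14.5 difference was also present in cells without the reporter. Among progenitors with 0 tdTomato UMIs the sum was 4239 CPM in control and 4969 CPM in gof, a ratio of 0.23, with 2 members higher against 2.42% of all genes. Among progenitors with 2 or more tdTomato UMIs the sums were 2828 and 3317 CPM, also 0.23. Of the pallial cells, 3.44% in control and 7.33% in gof were tdTomato-positive, so most cells behind the pallial values carried no detected reporter. Reporter-negative here means no tdTomato UMI was captured, which a cell of the Cre lineage can also show.

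Between the ages, 29 of the 41 members were lower in gof at E11.5 and higher in gof at E14.5 in whole libraries, and 0 had the reverse pattern. Of the 8121 genes measured at both ages, 26.0% had the members' common pattern and 18.4% the reverse. Lower in gof at both ages were 9 members (Mcm4, Rrm1, Dtl, Pold3, Cdc6, Blm, Pola1, Brip1 and E2f8), and higher at both were Mcm7, Uhrf1 and Ccne2. In the pallial gate the counts were 24, 9 and 7, with 1 member higher at E11.5 and lower at E14.5. Of the 7772 genes measured there, the shares were 23.8%, 39.1%, 16.5% and 20.5% in that order. These counts are of directions and most of the ratios behind them are within 1.5-fold. The difference between ages was not tested, since it would need replicate pools.

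**Figure D2:**
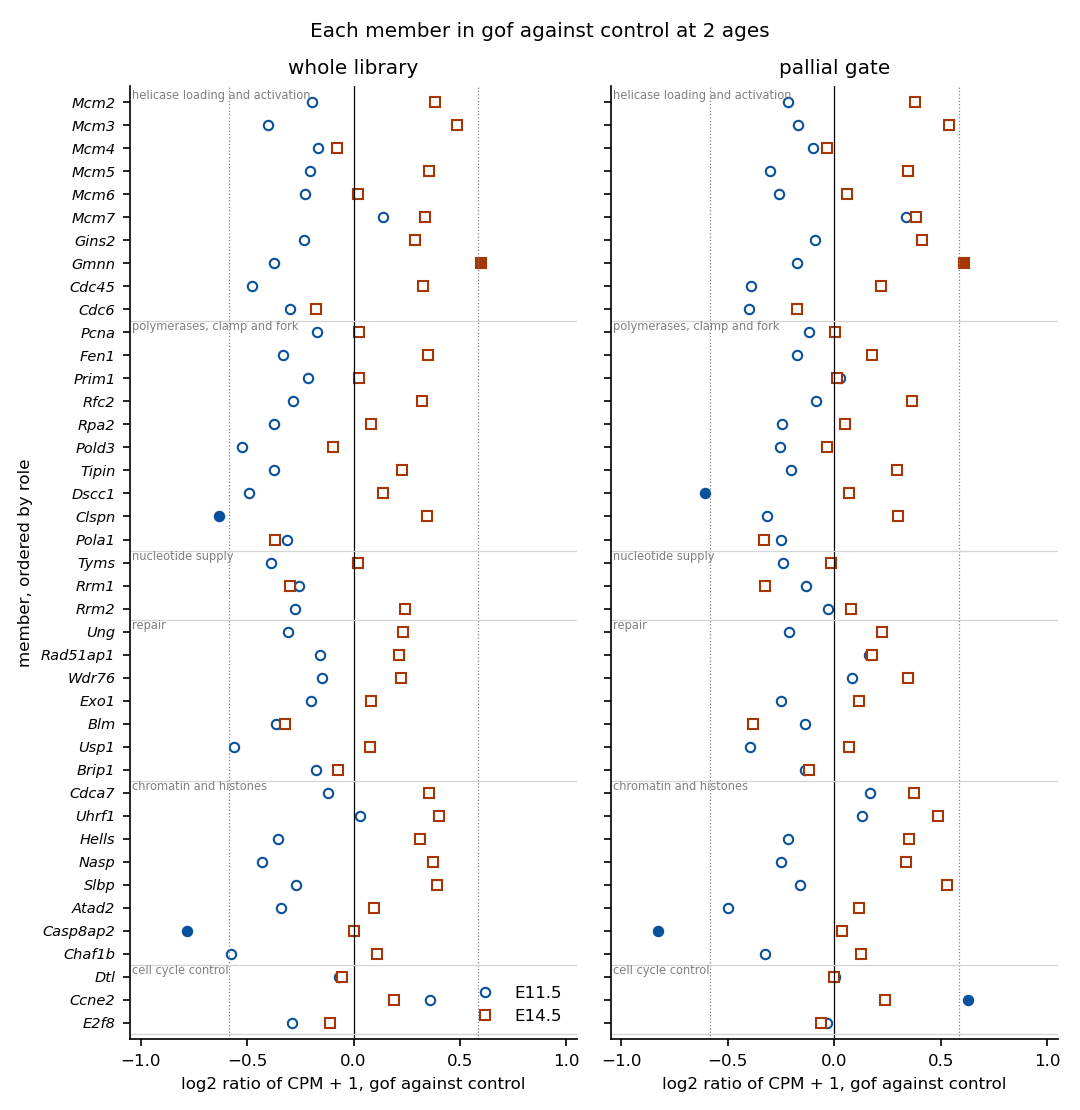
Each member (y axis, grouped by role) is placed by its log2 ratio of CPM + 1 in gof against control (x axis) in whole libraries (left) and the pallial gate (right), with circles for E11.5, squares for E14.5, dotted lines at 1.5-fold and filled symbols for members past the limit with separate counting intervals. Most circles lie left of 0 and most squares right of it, while Rrm1, Blm and Pola1 are left of 0 at both ages and Mcm7 and Ccne2 right of 0 at both.

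In tdTomato-positive cells, the descendants of Lmx1a-Cre cells, the sums were 3551 CPM in E11.5 control (554 cells) and 2869 CPM in E11.5 gof (293 cells), a ratio of −0.31. Here 7 of 41 members were lower and 0 higher, against a background of 5.59% lower and 4.68% higher. The 7 were Prim1, Tyms, Casp8ap2, Mcm3, Clspn, Wdr76 and Chaf1b. Chaf1b (26.5 and 16.0 CPM, −0.70), the repair protein Wdr76 (50.4 and 31.3 CPM, −0.67) and Clspn (56.7 and 36.4 CPM, −0.63) were lowest, and Mcm7 (128.3 and 149.7 CPM, 0.22) highest. Among tdTomato-positive progenitors alone 2 members were lower, with 6.31% of all genes lower. The count of 7 also depended on the settings. It was smaller under several of the alternatives given below and larger with a lower fold limit.

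At E14.5 the tdTomato-positive sums were 1947 CPM in control (1104 cells) and 2244 CPM in gof (1027 cells), a ratio of 0.21. Cdca7 was the 1 of 39 measured members past the limit (35.7 and 56.9 CPM, 0.66), with a background of 6.86% higher and 16.7% lower. Mcm3 (34.1 and 51.4 CPM, 0.58) and Cdc45, which joins the active helicase (9.67 and 14.54 CPM, 0.54), came next, and Pola1 (58.6 and 40.72 CPM, −0.51), Rrm1 (−0.40) and Blm (−0.31) were lowest. When 4 or more tdTomato UMIs were required, the ratio of sums was −0.026 and 2 members were lower, so the direction of this sum at E14.5 depended on the reporter threshold.

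Shares of cells rich in member UMIs were compared after thinning every cell to 3000 UMIs, which left out 102, 649, 280 and 262 shallower cells. A cell was called rich at 7 or more member UMIs, above the 95th percentile of the 4391 neuron-gated cells of all libraries, a limit that by construction keeps the neuron share low. In the pallial gate 85.7% of control cells (83.6 to 87.6) and 84.5% of gof cells (81.6 to 87.1) were rich at E11.5, and 70.9% of control cells (69.2 to 72.7) and 83.6% of gof cells (81.9 to 85.2) at E14.5. The E11.5 intervals overlapped, while the E14.5 intervals did not. The gof minus control difference, −1.22 percentage points at E11.5 and 12.7 at E14.5, depended on the settings: with the 99th percentile of neurons as the limit it was −8.81 and 5.21 points, and with a stricter cell filter (2000 genes or more, mitochondrial UMIs up to 5%) −4.89 points at E11.5. The limit is a point on a range: 8.82% to 11.6% of pallial cells had 6 or 7 member UMIs. Without thinning, the median share of a pallial cell's UMIs taken by members was 0.409%, 0.364%, 0.369% and 0.446%.

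Hem cells were less often rich, at 73.0%, 66.9%, 43.4% and 55.6%, and choroid plexus cells less again at E14.5, at 61.4%, 57.9%, 27.1% and 28.2%. The hem intervals of the 2 genotypes overlapped at both ages, at E14.5 with 38.6% to 48.4% in control and 46.1% to 64.7% in gof. Cajal-Retzius cells were rich in 5.29%, 4.85%, 4.72% and 4.55% of cells, with intervals that overlapped between all libraries, and neuron-gated cells in 7.19%, 7.49%, 1.93% and 6.47%. In E14.5 control the Cajal-Retzius share (2.90 to 7.19) was above the neuron share (1.34 to 2.68). In whole libraries the share was 66.6%, 56.0%, 38.8% and 45.4%, which also depends on how many neurons and non-neural cells each library held.

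**Figure D3:**
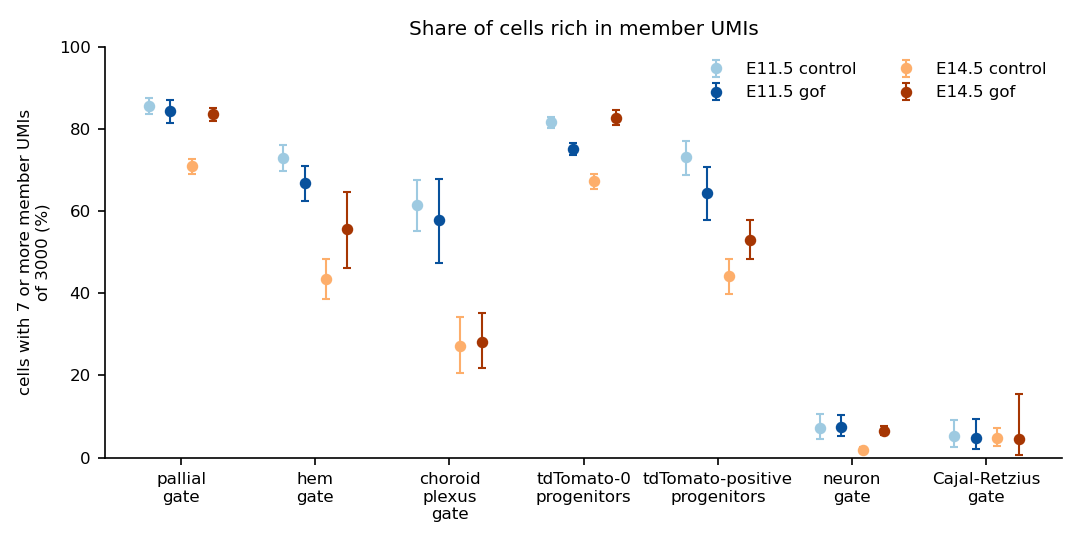
Points give the percentage of cells with 7 or more member UMIs among 3000 (y axis) for 7 populations (x axis) in the 4 libraries, with exact 95% Clopper-Pearson intervals as error bars. Pallial shares are between 70.9% and 85.7%, with E14.5 control lowest, and neuron and Cajal-Retzius shares stay below 8%.

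Within each library, cells of the Lmx1a-Cre lineage carried less of the module than other progenitors, most clearly at E14.5. tdTomato-positive progenitors summed to 3580 CPM against 4191 in tdTomato-0 progenitors in E11.5 control (−0.23), 3014 against 3712 in E11.5 gof (−0.30), 2828 against 4239 in E14.5 control (−0.58) and 3317 against 4969 in E14.5 gof (−0.58). The members lower in tdTomato-positive progenitors numbered 1, 8, 19 and 23 of 41 in that order, with 1.93%, 2.91%, 7.83% and 5.56% of all genes lower. Cdca7 was the lowest member in 3 of the 4 libraries: 79.1 against 120.2 CPM (−0.60) in E11.5 control, 57.8 against 138.2 CPM (−1.24) in E14.5 control and 95.9 against 186.4 CPM (−0.95) in E14.5 gof. In E11.5 gof, Wdr76 was lowest (30.1 against 58.8 CPM, −0.95). Rrm2 was lower too in E14.5 control, at 94.0 against 191.1 CPM.

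Lineage and cell class overlapped in this contrast. In E14.5 control, 57.0% of tdTomato-positive progenitors were in the hem gate, 23.4% in the choroid plexus gate and 17.2% in the pallial gate, whereas 82.7% of tdTomato-0 progenitors were pallial. Inside the hem gate the 2 kinds of cell read 3019 CPM (2971 to 3067, 302 cells) and 3102 CPM (2967 to 3242, 53 cells), with overlapping intervals, and inside the pallial gate 4105 and 4335 CPM. In E11.5 control the hem-gate values were 3729 and 3683 CPM. In E14.5 gof the pallial values were 4852 and 5012 CPM. In the gates and libraries given here, the gap between tdTomato-positive and tdTomato-0 progenitors was much smaller than over all progenitors of the library. Other gates, among them the hem gate in E14.5 gof, and the E11.5 gof library are not given, so the statement does not extend to them.

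Hem against pallial cells gave ratios of −0.18 and −0.19 in E11.5 control and gof and −0.52 and −0.52 in E14.5 control and gof. The members lower in hem cells numbered 0, 1, 16 and 17, where 2.82%, 4.22%, 7.43% and 5.86% of all genes were lower. Cdca7 was again lowest at E14.5, with 54.5 against 141.4 CPM in control (−1.36) and 84.3 against 183.9 CPM in gof (−1.12), followed in gof by Clspn with 51.9 against 110.6 CPM (−1.08). Brip1 (31.5 against 32.1 CPM) and Pold3, an accessory subunit of polymerase δ (56.8 against 63.2 CPM), hardly differed in gof. Choroid plexus against pallial cells gave −0.39, −0.48, −1.20 and −1.24, with 5, 10, 37 and 41 members lower against backgrounds of 5.97%, 6.81%, 26.4% and 17.4%.

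Cells in which at least 1 UMI of Notum was captured were looked at separately. Notum is an enzyme that inactivates Wnt proteins and a known target of canonical Wnt signalling; this gene was chosen after its values were seen. Progenitors with at least 1 Notum UMI numbered 65 and 280 in control and gof at E11.5, and 25 and 251 at E14.5. In E14.5 gof a Notum UMI was found in 84.0% of choroid plexus, 31.4% of hem, 11.7% of neuron-gated and 1.96% of pallial cells. Median depths in these gates were 17656, 16303, 12988 and 15613 UMIs. The same gates of E14.5 control had 2.25%, 0% (0 of 417 cells), 0.381% and 0.681%. Cajal-Retzius cells had 34.1% in E14.5 gof (15 of 44 cells) and 1.17% in E14.5 control. The unthinned E14.5 pallial intervals were separate, with 40 gof and 18 control cells at median depths of 15613 and 14184 UMIs. After thinning to 3000 UMIs the pallial shares were 0.197% in gof and 0.153% in control, with overlapping intervals. These thinned shares rest on 4 cells in each library. They therefore cannot decide whether Notum-positive pallial cells are at the background level. In E14.5 gof the Notum-positive progenitors of all gates summed to 2505 CPM (2462 to 2547). Notum-0 progenitors of the same library read 4872 CPM (4850 to 4894), a ratio of −0.96, and 38 of 41 members were lower against 14.2% of all genes. Pold3, Rfc2 and Casp8ap2 did not pass. In E11.5 gof the sums were 2804 and 3677 CPM (−0.39), with 9 members lower against 3.73% of all genes, Prim1 (28.8 against 52.5 CPM, −0.84), Clspn (−0.79) and Cdc6 (−0.73) lowest. Of the Notum-positive progenitors in E14.5 gof, 37.0% were rich in member UMIs (30.9 to 43.4), against 81.9% of the Notum-0 progenitors.

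The E14.5 contrast lay in tdTomato-positive cells. Cells with both tdTomato and Notum read 2144 CPM (199 cells), tdTomato-positive cells without Notum 4395 CPM (239 cells), tdTomato-0 cells with Notum (2.05% of tdTomato-0 progenitors) 4983 CPM (35 cells) and cells with neither 4969 CPM (1672 cells). By gate, 49.8% of the Notum-positive progenitors were choroid plexus cells, which read 2142 CPM against 2805 CPM in 25 Notum-0 choroid plexus cells. Hem cells read 2476 CPM with Notum (37 cells) and 3951 CPM without it (81 cells), and pallial cells 5053 CPM (40 cells) and 4970 CPM (2005 cells). The remaining progenitors read 1141 CPM with Notum (49 cells) and 4298 CPM without it (200 cells). Notum-positive cells were thus lower in each of these gates except the pallial one, where the intervals overlapped.

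**Figure D4:**
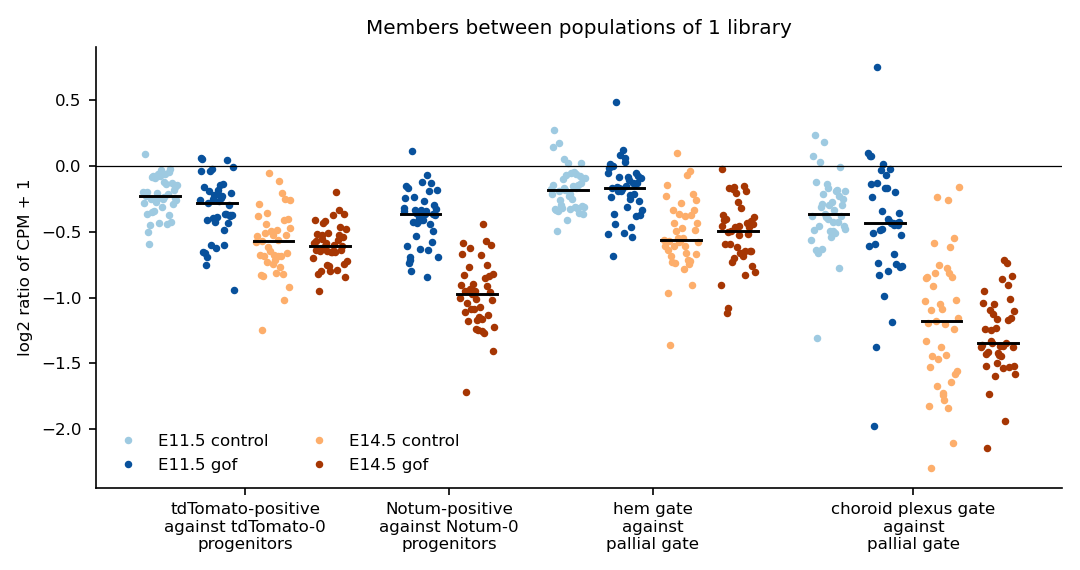
Each point is 1 member's log2 ratio of CPM + 1 (y axis) between 2 populations of the same library, for 4 contrasts (x axis), with a black line at the median of the members; the Notum contrast is drawn for the gof libraries only. The median of the members is lower at E14.5 than at E11.5 in each contrast, with overlapping ranges, and the lowest single point of the Notum contrast is Cdca7 in E14.5 gof at −1.71.

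Age was compared within a genotype, although depth, pool size and non-neural share differed between the ages. In control, the sum was lower at E14.5 (−0.39), with 2 members higher and 9 lower, while 51.9% of all measured genes were higher and 7.79% lower and the median of all genes was 0.62. Gmnn read 214.0 CPM at E11.5 and 71.9 at E14.5 (−1.56), Rrm2 284.0 and 112.0 CPM (−1.34) and Gins2, part of the active helicase, 54.6 and 23.8 CPM (−1.16). Pola1 (47.9 and 83.2 CPM, 0.78), Brip1 (0.65) and E2f8 (0.50) had the highest ratios. In gof the sum was slightly higher at E14.5 (0.11; 8 members higher and 3 lower, background 50.7% higher and 8.78% lower), but the ratio was −0.043 without non-neural cells. Among pallial cells the control ratio was 0.04 and the gof ratio 0.38, with Gmnn (−1.03) and Rrm2 (−0.83) lower at E14.5 in control.

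The rest of the replication pathway was read from a further 63 genes, 62 of them measured, which include origin recognition subunits, other polymerase and clamp loader subunits and E2F factors. At E11.5, 0 were higher and 2 lower in gof: Fbxo5, an inhibitor of the anaphase-promoting complex (94.6 and 49.7 CPM, −0.91), and E2f2 (12.7 and 7.21 CPM, −0.74). Pole2 (0.47) and Rpa3 (0.37) had the highest ratios, and the median was −0.20. At E14.5, 2 were higher and 0 lower: E2f1 (25.7 and 45.3 CPM, 0.79) and the clamp loader subunit Rfc3 (48.7 and 74.3 CPM, 0.60). Orc4 (−0.42) and Orc2 (−0.33) were lowest, and the median was 0.11. Of all measured genes, 4.27% were higher and 4.12% lower at the younger age, and 3.13% higher and 8.1% lower at the older. Both medians had the sign of the members' median at the same age.

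The proliferation genes Mki67 and Top2a did not follow the members in all cases. Mki67 read 61.2, 47.5, 105.1 and 99.5 CPM and Top2a 303.6, 266.6, 239.0 and 284.2 CPM. The 38 genes of G2 and mitosis summed to a log2 ratio of −0.23 in whole E11.5 libraries and 0.13 in whole E14.5 libraries. In the pallial gate the same sums gave 0.07 and 0.02, where the members gave −0.15 and 0.19. The 63 histone symbols, mostly replication-dependent, summed to −0.60 in whole E11.5 libraries and −0.76 in whole E14.5 libraries, with 7 of 22 and 16 of 33 measured genes lower against 4.12% and 8.1% of all genes, and at E14.5 their ratio was opposite in sign to that of the members. These RNAs mostly lack a poly(A) tail, and the libraries were made from poly(A) RNA.

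Neuron-gated cells at E14.5 differed more between genotypes than pallial or hem cells. The members summed to 699 CPM in control (689 to 710, 1837 cells) and 1015 CPM in gof (1003 to 1027, 1976 cells), a ratio of 0.54, and 9 of 25 measured members were higher and 0 lower, against 5.59% and 6.6% of all genes. Of the 9, Clspn, Gmnn, Hells, Cdca7 and Mcm2 reached 10 CPM in gof only, a filter that favours the call, so the count of 9 is a description. Among the 19 members at 10 CPM or more in both libraries, 4 were higher: Fen1, Rrm2, Atad2 and Nasp. Clspn read 2.81 and 12.0 CPM (1.77), Rrm2 10.5 and 34.2 CPM (1.62) and Gmnn 5.32 and 15.6 CPM (1.39), all far below their pallial levels. Since a member is measured here only at 10 CPM or more in either library, the 16 members left out were low in both. The ratio of sums was 0.57 in tdTomato-0 and 0.50 in tdTomato-positive neuron-gated cells.

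Rich cells in this gate numbered 34 of 1763 in control (1.93%, 1.34 to 2.68) and 120 of 1854 in gof (6.47%, 5.40 to 7.69). Those 120 cells had less neuron marker RNA than the other gated cells of their library (4043 against 7808 CPM) and more intermediate progenitor marker RNA (1925 against 916 CPM), with Eomes, the defining gene of cortical intermediate progenitors, at 568 against 144.7 CPM. Stmn2, a neuronal microtubule gene, read 217 against 1173 CPM, and Mki67 256 against 12.0 CPM. The 34 control cells read 3636 CPM for neuron markers, 1899 CPM for intermediate progenitor markers and 607 CPM for Eomes. The gate thus also held cells with intermediate progenitor markers and proliferation genes, in larger number in gof, and their part in the neuron-gate difference was not tested.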

How the data were processed

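RNA of dissociated cells from 4 pools of mouse embryos was measured with 10x 3′ v3.1 libraries, per the labels. The deposited matrices hold raw UMI counts per gene and barcode, made by the authors; the submitters' processing notes name Cell Ranger 7.1.0 and mm10. Which annotation they used is not stated in the sources used here, and gene positions are from GENCODE M21. Ages follow the series text, since titles shorten them to E11 and E14.

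Barcodes under 1000 genes or over 10% mitochondrial UMIs were dropped (616, 1084, 775 and 691 per library, listed as in the results). Scrublet, left to its default threshold, marked 2, 2, 309 and 348 doublets and so did not work at E11.5; the highest-scoring barcodes were removed at 0.8% per 1000 barcodes (459, 602, 492 and 314), with scanpy 1.11.5 in Python 3.11.15. Counts were summed per population, expressed as CPM with exact Poisson intervals, and shares with Clopper-Pearson intervals (scipy 1.17.1), both for counting error only. No count model was fitted, since each group is 1 library. The rule for calls was tested on simulated Poisson counts with known folds. These hold counting error only, so that test does not cover variation between pools or in cell make-up.

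The members, gene lists and markers were chosen with earlier results of these data known, and gate thresholds were set after the marker distributions were seen. The pallial gate also required 1 marker that is not reported here. Named per comparison were the 3 highest and 3 lowest members, 8 preset members (Mcm2, Mcm6, Pcna, Rrm2, Tyms, Ccne2, Cdc6, E2f8), the 2 highest and 2 lowest of the other replication genes, and Ctnnb1, tdTomato, Mki67 and Top2a as checks; other genes were named after their values were seen. The contrasts between progenitors within a library and the Notum split were added after the data were seen. Alternatives varied the doublet rate, cell filter, scaling, fold limit, pseudocount, reporter threshold and gate depth.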

Additional observations from a re-analysis of the deposited data

Results flagged for a closer look

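The summed level of the members had the opposite sign in gof against control at the 2 ages in whole libraries, with log2 ratios of −0.30 (E11.5) and 0.19 (E14.5), a difference of 0.49. In the pallial gate the ratios were −0.15 and 0.19, a difference of 0.35, and in the hem gate −0.16 and 0.19, a difference of 0.35. Relative to the median of all genes, the E11.5 ratios were −0.055 (pallial) and −0.087 (hem). With 1 library per age and genotype, the difference between ages was not tested. The median depth of the gof library was below that of its control at E11.5 (5643 against 8172 UMIs) and above it at E14.5 (14013 against 12850 UMIs), and non-neural cells made up 23.7% against 15.5% of cells at E11.5 and 3.14% against 2.51% at E14.5. The 2 signs in the pallial gate were those of whole libraries. Beyond the values given without non-neural cells, whether depth or the non-neural share contributed to the difference between ages was not tested.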

How the results depend on the processing

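Directions of gof against control held for the whole-library, pallial and hem sums at both ages under every alternative run. No paired analysis was possible because each age and genotype has 1 library and the labels carry no replicate numbers, so leaving out a replicate was not run either. Of 256 alternative values, 6 reversed a sign, 117 moved beyond counting error or by over 1.5 times for counts, and 133 did neither; causes were not tested unless stated.

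With a stricter cell filter (2000 genes or more, mitochondrial UMIs up to 5%), the gof age ratio (E14.5 against E11.5) reversed to −0.079 and the control age ratio was −0.51; the whole-library ratio was −0.22 (E11.5) and 0.21 (E14.5), the pallial E11.5 ratio −0.19 and the tdTomato-positive E14.5 ratio 0.23. Counts under it were 1 lower (whole, E11.5), 3 lower (tdTomato-positive, E11.5) and 2 higher (tdTomato-positive, E14.5). The pallial rich share at E11.5 was −4.89 percentage points in gof against control, from −1.22. Progenitor contrasts under it were −0.25 (tdTomato, E11.5 control), −0.56 (tdTomato, E14.5 gof), −0.25 and −0.92 (Notum, E11.5 and E14.5), and hem against pallial −0.21 (E11.5 control).

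Centred on the median of all genes, the age ratios were −1.01 in control and −0.49 in gof, a reversal. The whole-library ratios were −0.18 and 0.29, tdTomato-positive −0.22 and 0.33, pallial −0.055 and 0.29 and hem −0.087 at E11.5. Counts were 1 and 1 lower (whole and tdTomato-positive, E11.5), 9 higher (tdTomato-positive, E14.5) and 5 higher of the other replication genes at E14.5. Progenitor contrasts were −0.34 and −0.40 (tdTomato, E11.5 control and gof), −0.45 and −0.91 (Notum), and hem against pallial −0.27, −0.29, −0.55 and −0.56 in the 4 libraries.

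Scaling without mitochondrial, ribosomal and haemoglobin genes gave age ratios of −0.66 (control) and −0.17 (gof, reversed), whole-library ratios of −0.26 and 0.23, tdTomato-positive −0.27 and 0.26, pallial 0.24 at E14.5, and 3 lower and 4 higher members in tdTomato-positive cells. With 2 times the doublet rate, the whole-library ratios were −0.33 and 0.23, the tdTomato-positive ratio −0.35 at E11.5 and the age ratios −0.43 and 0.12, with 4 members lower (whole, E11.5) and 2 higher (tdTomato-positive, E14.5). With no doublets removed, 3 members were higher in tdTomato-positive cells at E14.5, the tdTomato contrasts were −0.19, −0.56 and −0.56 (E11.5 control, E14.5 control and gof), hem against pallial −0.16 (E11.5 control) and Notum −0.85 (E14.5).

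A fold limit of 0.32 on the log2 scale gave 1 higher and 17 lower (whole, E11.5), 19 lower (tdTomato-positive, E11.5), 12 higher and 1 lower (whole, E14.5) and 12 higher and 2 lower (tdTomato-positive, E14.5). Of all genes, 10.3% were higher and 21.4% lower past that limit in whole libraries at E11.5 and 8.55% and 23.5% at E14.5, and in tdTomato-positive cells 13.8% were lower at E11.5 and 14.4% higher and 32.5% lower at E14.5. A 2-fold limit gave 0 for each of these counts. A pseudocount of 5 CPM gave 2 lower (tdTomato-positive, E11.5) and 0 higher (whole, E14.5), and a minimum of 30 CPM 1 lower of the other replication genes at E11.5. At 4 or more tdTomato UMIs the E14.5 ratio reversed to −0.026 with 0 higher and 2 lower, and the E11.5 ratio was −0.25 with 4 lower; at 1 or more, counts were 2 lower (E11.5) and 2 higher (E14.5) and the E14.5 ratio 0.27. At the 99th percentile of neurons, gof minus control rich shares were −8.81 (pallial, E11.5), 5.21 (pallial, E14.5) and 1.73 (hem, E14.5) percentage points.

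The median of the members in place of the sum gave −0.29 (whole) and −0.35 (tdTomato-positive) at E11.5, −0.18 and 0.13 in the pallial gate, and age ratios of −0.25 and 0.20. Without Nasp, Pcna and Rrm2, the E14.5 ratios were 0.17 (whole) and 0.14 (tdTomato-positive) and the age ratios −0.34 and 0.13. Gates on cells thinned to 3000 UMIs gave −0.20 (pallial) and −0.067 (hem) at E11.5, and hem against pallial −0.20, −0.074, −0.45 and −0.38.

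Alternatives chosen after seeing the data were these. Without non-neural cells the E11.5 ratio was −0.23 with 1 lower, and the age ratios −0.47 and −0.043, the gof one reversed. Among progenitors alone the ratios were −0.18 and 0.20 (whole), −0.25 with 2 lower and 0.23 (tdTomato-positive), and the age ratios −0.031 and 0.35. With each cell weighted the same they were −0.41 and 0.11 (tdTomato-positive), 0.14 (whole, E14.5), and the age ratios −0.40 and 0.038. With status called in cells thinned to 3000 UMIs the tdTomato contrasts were −0.17, −0.53 and −0.43 (E11.5 control, E14.5 control and gof) and the Notum contrasts −0.49 and −1.42. In tdTomato-positive cells the Notum contrasts were −0.24 and −1.035, and in tdTomato-0 cells 0.0040 at E14.5, a reversed sign.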
